A study of Mus musculus with 4 samples.

Results

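The nuclear genes for the subunits of the 5 oxidative phosphorylation complexes were examined in mouse haploid embryonic stem cells (haESCs) treated with RDF or with its solvent DMSO. Subunit genes were taken by symbol (Nduf, Sdh, Uqcr, Cox and Atp5 followed by a subunit letter or number), with assembly factors and pseudogenes left out. This gave 80 of the 23235 gene symbols in the data, of which 37 belong to complex I, 4 to complex II, 8 to complex III, 16 to complex IV and 15 to complex V. Levels are given as FPKM, fragments scaled by transcript length and by the mapped fragments of the library.

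RNA was sequenced from 4 libraries, DMSO replicates 1 and 2 and RDF replicates 1 and 2, to ask which genes RDF alters. RDF stands for 3 compounds given together, namely Repsox and DMH1, which block TGF-β and BMP signalling, and Forskolin, which activates adenylate cyclase. Both groups were haESCs of the androgenetic line HG165, that is, cells whose single chromosome set comes from sperm. The usual medium of the study held serum and leukemia inhibitory factor, and its methods state that most experiments went without feeder cells, with RNA sequencing not named among the exceptions. For the sequenced cells, the doses, the length of treatment and any sorting for haploid DNA content were not given in the sources used here. Nothing states that the replicates came from separate cultures, so the p-values measure only the spread between these libraries, which may be technical. With 2 libraries a group, an exact permutation test of a single value cannot go below a two-sided p of 0.333.

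Oxidative phosphorylation passes electrons from NADH and succinate along complexes I to IV of the inner mitochondrial membrane, and complex V uses the resulting proton gradient to make ATP. Most subunits are encoded in the nucleus, and a small set comes from mitochondrial DNA. Pluripotent stem cells are known to draw heavily on glycolysis, while those in the naive state also respire actively, and the promoters of many subunit genes are known targets of the transcription factors NRF1 and YY1.

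Promoter and coding sequences bear on the levels given further on. Some of the genes share letters in their promoters. RefSeq promoter windows of GRCm38.p6, 250 bases before to 50 bases after the transcription start, were found for 67 of the 80 genes. The letters searched on both strands were GCGCATGCG for NRF1, AAGATGGCG for YY1, CCGGAAGTG for the ETS factor GABPA and CAAGGTCA for estrogen-related receptors, and no pair of them shares its letters in full. NRF1 letters stood in 8 of the 67 windows (11.9%, against 1.95% of 27025 genes with a window) and YY1 letters in 7 (10.4% against 1.64%). Receptor letters stood in 4 (5.97% against 1.76%) and GABPA letters in 2 (2.99% against 2.25%), so that 20 of the 67 genes (29.9%, against 7.24%) held at least 1 of the 4. These matches are descriptions of the letters and not of binding.

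The stretches with the NRF1 letters are shown for a gene of each complex that held them. They lie at chr17:56717692-56717720 (+) for Ndufa11, chr9:108936668-108936696 (+) for Uqcrc1, chr5:115349102-115349130 (-) for Cox6a1 and chr15:102671071-102671099 (-) for Atp5g2 on GRCm38.p6. The capitals mark the searched letters, with 10 bases on either side.
Ndufa11: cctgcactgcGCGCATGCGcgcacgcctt
Uqcrc1: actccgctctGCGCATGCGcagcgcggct
Cox6a1: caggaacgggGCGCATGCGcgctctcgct
Atp5g2: ggctccggccGCGCATGCGcagagccttc
The letters began 60 bases before the start in Ndufa11, 162 before it in Cox6a1, 42 before it in Atp5g2, and 30 bases after it in Uqcrc1.

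The YY1 letters hold an ATG, and in 5 of the 7 genes with them this ATG was the first codon of the coding sequence. All 5 encode complex I subunits. They are shown because the searched letters and the start of the protein are the same bases, at chr6:126849097-126849125 (-) for Ndufa9, chr3:51408915-51408943 (-) for Ndufc1, chr13:114388045-114388069 (-) for Ndufs4, chr13:73328433-73328459 (-) for Ndufs6 and chr10:80249463-80249491 (+) for Ndufs7 on GRCm38.p6. The capitals again mark the searched letters, and the stretch ends with the window in Ndufs4 and Ndufs6.
Ndufa9: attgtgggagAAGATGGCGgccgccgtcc
Ndufc1: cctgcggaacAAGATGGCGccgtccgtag
Ndufs4: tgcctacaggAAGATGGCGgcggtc
Ndufs6: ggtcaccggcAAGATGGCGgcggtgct
Ndufs7: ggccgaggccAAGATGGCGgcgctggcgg
In these genes the letters began 22 to 35 bases after the transcription start.

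Coding sequences show how far the reads of a subunit gene can be told from copies elsewhere. Many of these genes have left processed copies in the genome, and a read that lies in an exact copy has more than 1 place to align. Over the NCBIM37 (mm9) genome, 36 of the 80 genes had at least one 50-base stretch of coding sequence repeated exactly outside the gene, 12 had over 50% of their stretches repeated and 4 (Atp5g2, Atp5l, Cox7c and Ndufb4) had all of them. The coding sequences of 3 short complex IV subunits span that range. Cox7c lies at chr13:86184421-86186509 (-), Cox7a1 at chr7:30969190-30971047 (+) and Cox7a2 at chr9:79603048-79607660 (-) on NCBIM37, and the capitals mark bases inside a repeated stretch.
Cox7c: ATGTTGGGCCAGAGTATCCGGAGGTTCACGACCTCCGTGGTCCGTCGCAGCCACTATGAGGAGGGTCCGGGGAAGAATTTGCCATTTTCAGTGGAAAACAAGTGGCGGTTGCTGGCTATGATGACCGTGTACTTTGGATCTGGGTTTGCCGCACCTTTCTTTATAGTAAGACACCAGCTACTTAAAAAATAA
Cox7a1: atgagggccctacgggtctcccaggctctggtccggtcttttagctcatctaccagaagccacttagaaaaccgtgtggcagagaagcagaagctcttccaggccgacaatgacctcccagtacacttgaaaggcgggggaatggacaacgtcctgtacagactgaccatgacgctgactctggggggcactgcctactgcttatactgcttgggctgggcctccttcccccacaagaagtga
Cox7a2: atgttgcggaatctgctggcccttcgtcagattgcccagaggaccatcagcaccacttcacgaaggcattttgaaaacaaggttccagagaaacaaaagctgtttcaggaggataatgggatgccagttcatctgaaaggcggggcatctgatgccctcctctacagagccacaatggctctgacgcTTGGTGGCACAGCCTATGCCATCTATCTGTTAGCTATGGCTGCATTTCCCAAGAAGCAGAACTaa
All 192 coding bases of Cox7c, 63 of the 252 of Cox7a2 and none of the 243 of Cox7a1 were in such stretches. Levels of the 36 genes are therefore less certain than those of the 44 without a copy.

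Over all genes, the summed FPKM lay between 718064 and 764461 per library, and DMSO replicate 2 had the highest sum. The mapped depth was not given. The steps between the lowest FPKM came closest to whole fragments at 9320000 to 12500000 fragments per library, where 42.3% to 46.3% of low values lay within 0.1 of a whole fragment against 20.0% without steps, so this is a rough estimate. Of 8 embryonic stem cell markers all were detected, at a summed 7808 and 7748 FPKM in DMSO and 5017 and 4547 in RDF. Most of that sum was Dppa5a, at 5493 and 5539 FPKM in DMSO and 3232 and 2839 in RDF. By limma at an adjusted p under 0.05, 6 of the 8 (75.0%) differed, against 21.6% of all genes tested. Pou5f1, Tdgf1, Dppa5a and Utf1 were lower (4), and Sox2 and Zfp42 were higher (2). Fibroblast markers were read because the growth protocol in the labels names feeder cells, although the methods state that most experiments did without them. Of 12 such markers, 9 passed the filter of a mean of 1 FPKM. By the same test 6 of the 9 (66.7%) differed, 5 lower and 1 higher, against the same 21.6%. Col1a1, Col1a2, Postn, Thy1 and Vim were lower, and Dcn was higher, at 1.74 and 1.40 FPKM in DMSO and 6.56 and 7.51 in RDF. The markers thus did not move as 1 set. The summed level of the 12 was 181 and 183.6 FPKM in DMSO and 122.6 and 123.9 in RDF. Most of it was Vim, which stem cells can also express, at 138 and 139 FPKM in DMSO and 88.9 and 91.1 in RDF. None of the 12 was at 0 in every library. The part of either change in the results below was not tested.

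The subunit genes were among the more abundant transcripts of the haESCs. Of the 80 genes, 76 had a mean of at least 10 FPKM and 66 of at least 100 FPKM. Together they made up 23278 and 26218 FPKM in DMSO replicates 1 and 2 and 23990 and 23430 FPKM in RDF replicates 1 and 2. This was 3.21% and 3.43% of all FPKM in DMSO and 3.32% and 3.26% in RDF. The groups overlapped on both scales, with both RDF libraries between the DMSO libraries. Complex V took 32.4% to 33.6% of the subunit FPKM in each library, complex I 27.2% to 27.8%, complex IV 26.0% to 27.1%, complex III 10.1% to 10.5% and complex II 2.28% to 2.43%. By the genes that the symbols place in each complex, the order was V, then I and IV, then III, then II in all 4 libraries. The ranges of complexes I and IV nearly met. This order depends on the symbol rule. It leaves out the complex IV gene Cox4i1, at 2105 and 2110 FPKM in DMSO and 2001 and 1918 in RDF. Adding Cox4i1 would place complex IV above complex I, and above complex V as counted, in all 4 libraries. The rule leaves out other subunit genes as well, among them Usmg5 (704 to 746 FPKM) and 2010107E04Rik (450 to 464 FPKM). It also counts Ndufa4, now placed with complex IV, under complex I. The shares and their order are therefore those of the genes taken by symbol. Per gene, the median level was lowest in complex I (138.9 to 159.9 FPKM over the libraries) and complex II (135.6 to 160.7 FPKM), whose ranges overlapped, and highest in complex V (391.1 to 448.4 FPKM).

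**Figure D1:**
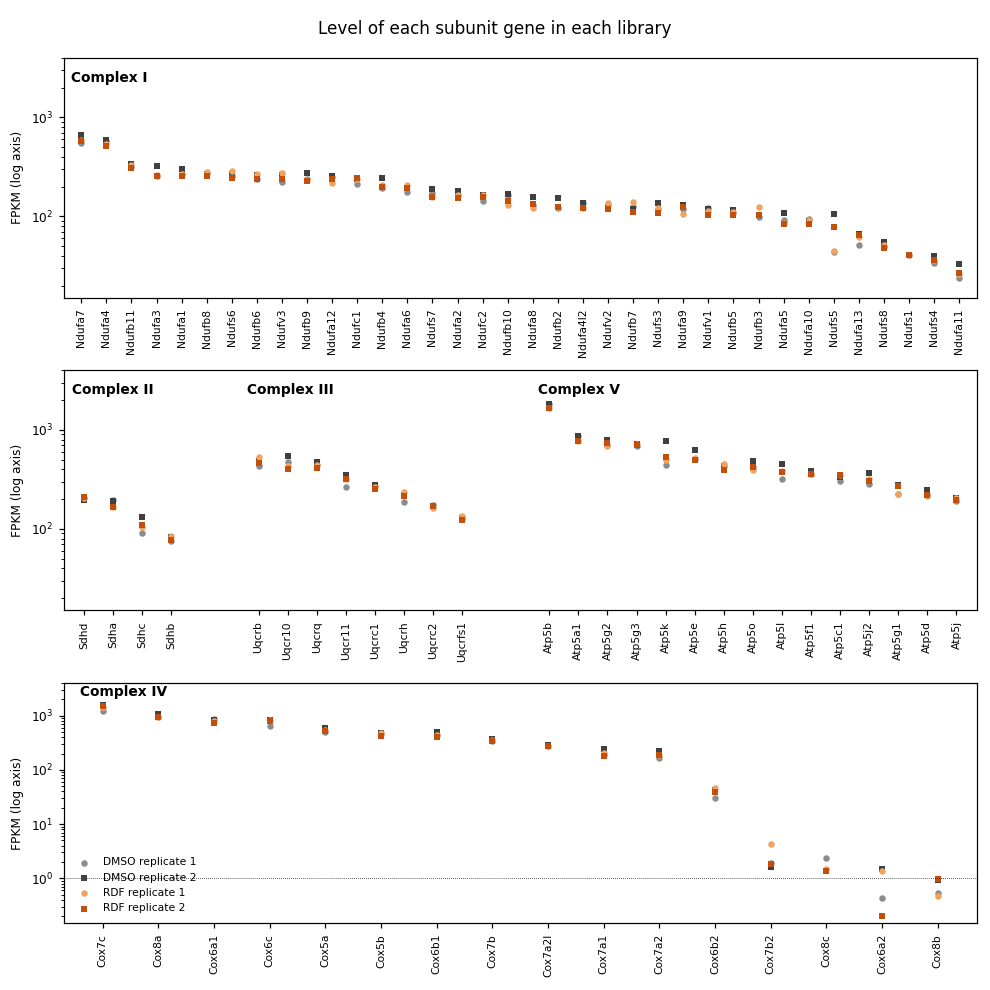
FPKM of 79 of the 80 subunit genes in each of the 4 libraries, on a log axis, ordered within each complex by mean level. The points of the 4 libraries lie close together for most genes, and 4 complex IV isoform genes (Cox7b2, Cox8c, Cox6a2 and Cox8b) lie near the dotted line at 1 FPKM.

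RDF changed few subunit genes by the test across all genes. Of the 78 that passed the filter of a mean of 1 FPKM (Cox6a2 and Cox8b did not), 2 were lower in RDF and 0 were higher by limma at an adjusted p under 0.05. The 2 were Ndufb10, an accessory subunit of the membrane arm of complex I, and Sdha, the flavoprotein that oxidises succinate in complex II. The same test called 21.6% of all 11733 genes tested, 13.3% higher and 8.28% lower, and 18.2% of the 795 genes whose longest transcript has at most 1000 nucleotides. It called 19.6% of the 974 genes that averaged 100 FPKM or more. At an unadjusted p under 0.05 by limma, 8 of the 78 subunit genes (10.3%) were past the threshold, against 4453 of all genes (38.0%). The share was 31.9% for the genes with short transcripts and 33.7% for those averaging 100 FPKM or more. The unadjusted counts given below for single complexes and lists stand against the same 38.0%.

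The number called was small but not fixed, and it changed when 1 library was left out, as did the calls over all genes. Such fits leave 1 library in a group, so effect sizes are given for them. The median log2 fold change of the subunit genes was -0.125 without DMSO replicate 1 and -0.00038 without DMSO replicate 2. It was -0.086 without RDF replicate 1 and -0.044 without RDF replicate 2. Over all genes tested the median stayed between 0.022 and 0.030 in these fits. After removal of a smooth trend on GC content and transcript length in each library, 4 subunit genes were higher (Atp5c1, Cox6b2, Ndufa6 and Uqcrh) and 2 lower (Sdha and Uqcr10). With that correction, 1902 of 11317 genes were called higher and 1234 lower. Scaling the libraries to equal summed FPKM moved the calls over all genes to 1825 higher and 701 lower, from 1561 and 972, and left no subunit gene called.

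Most of the differences could be bounded. The 95% interval of the log2 fold change lay inside a 1.5-fold change either way for 73 of the 78 genes, against 78.2% of all genes tested, 62.0% of those with transcripts of at most 1000 nucleotides and 90.2% of those with a mean of at least 100 FPKM. The 73 genes are 93.6%, close to the share of the abundant genes, a class that includes 66 of the subunit genes themselves. The 5 with wider intervals were Ndufs5, Atp5k, Cox6b2, Cox7b2 and Cox8c. Fitted log2 fold changes ran from -0.28 to 0.48 with a median of -0.06, and 55 of the 78 lay below 0. The median was 0.03 over all genes tested, -0.07 over those with short transcripts and -0.07 over those with a mean of at least 100 FPKM. In 28 subunit genes (35.9%) the libraries of the groups did not overlap, 23 with RDF below DMSO and 5 with RDF above. Such separation was seen in 65.5% of all genes tested, where 3339 lay lower in RDF and 4351 higher. Among short transcripts it reached 49.8% (259 lower, 137 higher), and among genes averaging 100 FPKM or more 63.4% (421 lower, 197 higher). Fold changes fell below 0 in 482 of 795 short-transcript genes, 634 of 974 abundant genes and 5351 of all 11733. Both classes thus leaned lower in RDF as well.

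**Figure D2:**
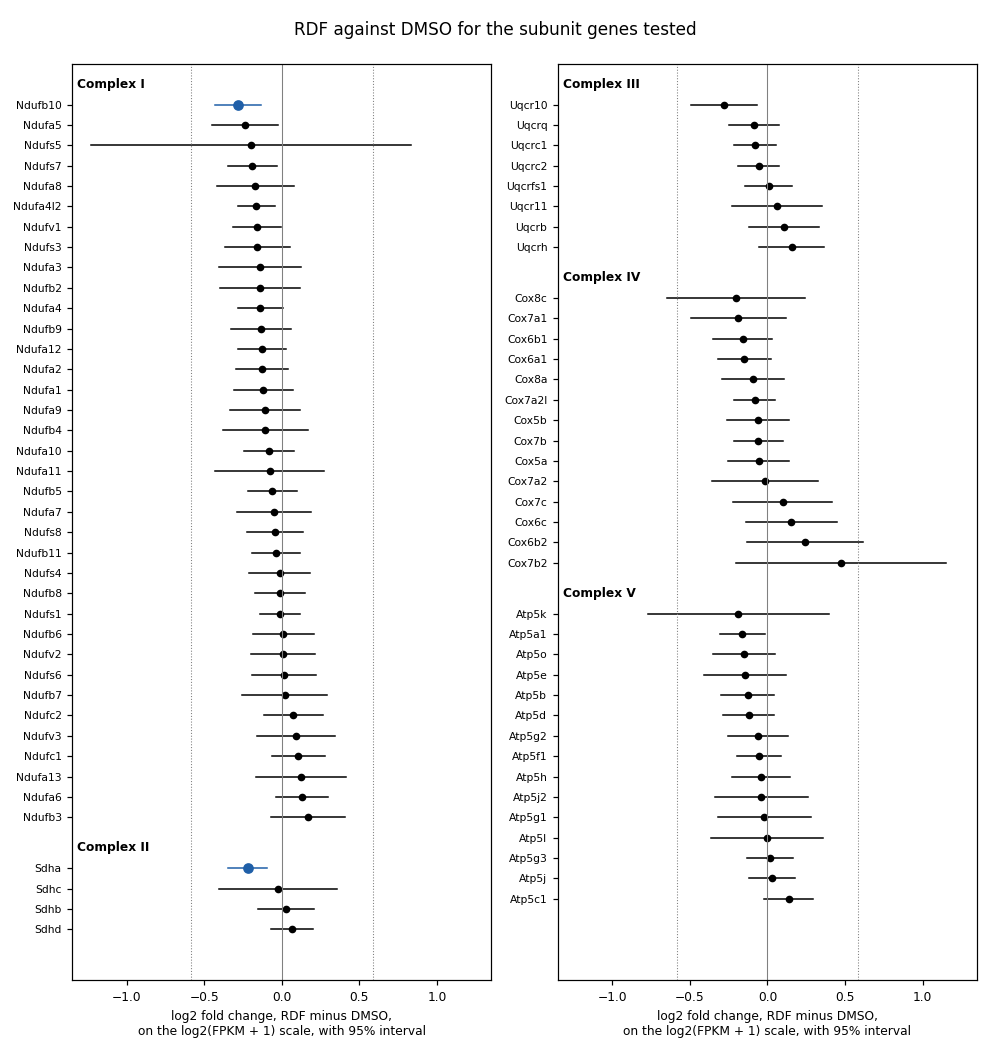
Log2 fold change of RDF minus DMSO on the log2(FPKM + 1) scale for 77 of the 78 subunit genes tested, by complex, with the 95% limma interval as a line. The larger blue points are Ndufb10 and Sdha, the dotted lines mark a 1.5-fold change, and 5 intervals cross a dotted line.

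The median difference between the DMSO replicates was larger than that between the groups. DMSO replicate 2 was above DMSO replicate 1 in 62 of the 78 genes, with a median difference of 0.15 on the log2(FPKM + 1) scale. RDF replicate 2 was above RDF replicate 1 in 26, with a median of -0.04. RDF replicate 1 had a median difference of 0.05 from DMSO replicate 1 and of -0.11 from DMSO replicate 2, and RDF replicate 2 lay at -0.01 from DMSO replicate 1 and -0.14 from DMSO replicate 2. Genes with short transcripts as a class had the same signs within the groups, with medians of 0.10 between the DMSO libraries and -0.05 between the RDF libraries, while the medians over all genes tested were -0.01 and 0.02. The subunit genes were mostly short, with a median longest transcript of 957.5 nucleotides against 2974 for all genes tested. For the 43 tested subunit genes of at most 1000 nucleotides the median difference between the DMSO libraries was 0.18, and for the 35 longer ones 0.11.

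**Figure D3:**
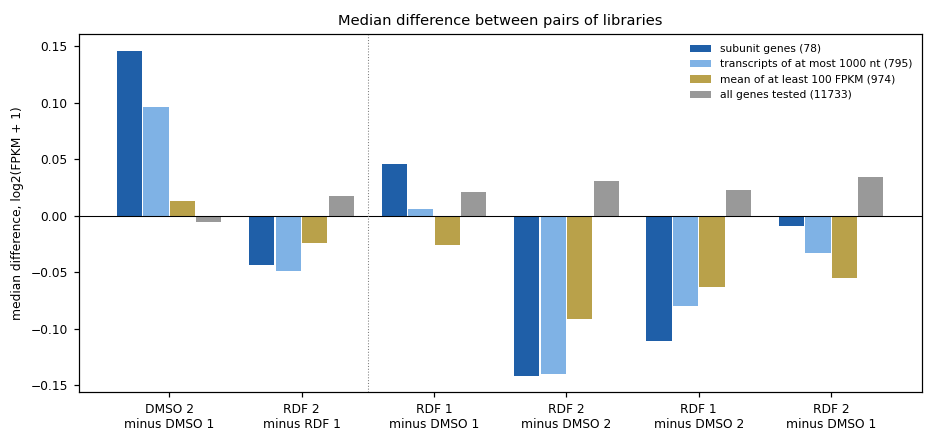
Median difference on the log2(FPKM + 1) scale between pairs of libraries, for the 78 subunit genes, the 795 genes with transcripts of at most 1000 nucleotides, the 974 genes averaging 100 FPKM or more and all 11733 genes tested. The first 2 sets of bars compare replicates, and the subunit genes differ more between the DMSO replicates (0.15) than between either RDF library and DMSO replicate 1.

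Complex I takes electrons from NADH, and its core subunits carry the flavin and the iron-sulfur clusters. Ndufb10 (chr17:24859005-24861423) stood at 163 and 169 FPKM in DMSO and at 131 and 141 in RDF. Both RDF libraries were below both DMSO libraries. The log2 fold change was -0.28 (SE 0.06) with a limma adjusted p of 0.0249. The adjusted p was 0.0683 without DMSO replicate 2, 0.132 without RDF replicate 1 and 0.0755 without RDF replicate 2, and lay between 0.0171 and 0.132 over all alternatives tried. No exact copy of its coding sequence was found elsewhere.

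Core subunits of complex I are given by Ndufs1 and Ndufv1, of which neither was called. Ndufs1, which holds iron-sulfur clusters of the NADH-oxidising end, stood at 40.6 and 40.8 FPKM in DMSO and 40.4 and 40.5 in RDF. The log2 fold change was -0.01, with a 95% interval of -0.14 to 0.12, among the narrowest of the complex. Ndufv1, which binds NADH and the flavin, stood at 123 and 118 FPKM in DMSO and 112 and 103 in RDF. The RDF libraries were the lower pair in Ndufv1, with a log2 fold change of -0.16 and a limma adjusted p of 0.118, which did not pass the test.

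The 37 complex I genes together had a median change (log2) of -0.08, with 27 below 0 and 10 above. The most abundant were Ndufa7, an accessory subunit, at 550 and 665 FPKM in DMSO and 589 and 578 in RDF, and Ndufa4, at 575 and 592 in DMSO and 542 and 519 in RDF. Ndufa4 was first counted with complex I and is now placed with complex IV. Its libraries did not overlap between the groups, but the log2 fold change of -0.14 had a limma adjusted p of 0.152. The least abundant was Ndufa11 at 23.8 and 33.2 FPKM in DMSO and 26.3 and 26.9 in RDF. Ndufb3 had the highest positive fold change of the complex (0.17, SE 0.10, limma adjusted p 0.25), carried by RDF replicate 1 at 125 FPKM, while the other 3 libraries stood at 98.8, 102 and 102.

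Ndufs5, an accessory subunit, was the least settled gene of the complex. It stood at 43.5 and 105 FPKM in DMSO and at 44.8 and 77.5 in RDF. Replicate 2 was the higher one in both groups and the groups overlapped in full. Its log2 fold change was -0.20 (SE 0.42), and it was 0.43 without DMSO replicate 2, 0.19 without RDF replicate 1 and -0.82 without DMSO replicate 1. Of its coding 50-base stretches, 72.8% had an exact copy elsewhere, and the part of these copies in the spread was not tested.

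Complex II passes electrons from succinate to ubiquinone and belongs to the citric acid cycle as well. Sdha (chr13:74459702-74487728) stood at 195 and 190 FPKM in DMSO and at 166 and 165 in RDF. The replicates lay close together, and RDF was the lower pair. The log2 fold change was -0.22 (SE 0.05) with a limma adjusted p of 0.0314. Leaving out any 1 library raised that p past the threshold, to 0.0883 without DMSO replicate 1, 0.0602 without DMSO replicate 2, 0.135 without RDF replicate 1 and 0.147 without RDF replicate 2, with log2 fold changes from -0.24 to -0.20. Over all alternatives tried it lay between 0.00335 and 0.147.

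The other complex II genes were not called. The iron-sulfur subunit Sdhb stood at 75.5 and 82.7 FPKM in DMSO and 84.6 and 76.6 in RDF, with overlapping groups. The membrane anchor Sdhd stood at 203 and 195 FPKM in DMSO and 205 and 212 in RDF, a log2 fold change of 0.07 with an interval of -0.07 to 0.20. The other anchor, Sdhc, stood at 91.2 and 131 FPKM in DMSO with both RDF libraries between these values, at 105 and 109. Sdhc was called lower without DMSO replicate 1 (-0.29, limma adjusted p 0.0382) and had a log2 fold change of 0.23 without DMSO replicate 2, and its adjusted p reached 0.999 among the alternatives.

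Complex III hands electrons from ubiquinol to cytochrome c. Its 8 genes had a median change (log2) of -0.02, with 4 above and 4 below 0, and none was called by limma (1 at an unadjusted p under 0.05). The core protein gene Uqcrc1 stood at 270 and 277 FPKM in DMSO and 266 and 252 in RDF. Uqcrfs1, the Rieske iron-sulfur protein, stood at 126 and 130 FPKM in DMSO and 134 and 123 in RDF, with a log2 fold change of 0.01 and an interval of -0.14 to 0.16. The most abundant were the small subunits Uqcrb (436 and 483 in DMSO, 533 and 460 in RDF) and Uqcr10 (472 and 544 in DMSO, 434 and 400 in RDF). Uqcr10 had the lowest value of the complex, a log2 fold change of -0.28 (SE 0.09) with a limma adjusted p of 0.067 and RDF below DMSO in all pairs. It was called lower without DMSO replicate 1 (-0.38, limma adjusted p 0.0229), and its adjusted p lay between 0.0125 and 0.288 over all alternatives.

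Complex IV reduces oxygen, and several of its subunits exist as tissue isoforms from separate genes. Cox7c was the most abundant, at 1193 and 1565 FPKM in DMSO and 1449 and 1475 in RDF, and as shown above all of its coding bases are repeated elsewhere. Cox8a followed at 936 and 1063 FPKM in DMSO and 937 and 933 in RDF. Cox5a stood at 508 and 583 FPKM in DMSO and 532 and 515 in RDF, and Cox5b at 460 and 482 in DMSO and 484 and 421 in RDF. In all 4 the groups overlapped. Cox6c stood at 645 and 831 FPKM in DMSO and 819 and 811 in RDF, a log2 fold change of 0.15 (SE 0.12) that was 0.34 without DMSO replicate 2 and -0.03 without DMSO replicate 1. None of the 14 complex IV genes tested was called by limma (0 at an unadjusted p under 0.05), and their median log2 fold change was -0.06.

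The isoform genes showed which forms haESCs express. Cox6a1 stood at 862 and 833 FPKM in DMSO and 795 and 733 in RDF, while the heart and muscle form Cox6a2 stood between 0.205 and 1.47 FPKM. Cox8a made up 99.7% to 99.8% of the FPKM of its family, and the muscle form Cox8b and the testis form Cox8c stood at 0.464 to 0.991 FPKM and 1.34 to 2.35 FPKM. Cox7b made up 98.8% to 99.6% of its pair with the testis form Cox7b2. Cox7b2 stood at 1.95 and 1.63 FPKM in DMSO and at 4.28 and 1.84 in RDF, so that its fold change (log2 0.48, SE 0.28) rested on RDF replicate 1, and without RDF replicate 2 it was called higher (0.92, limma adjusted p 0.05, against up to 0.919 under other alternatives). Outside the symbol rule, Cox4i1 made up 99.2% to 99.3% of its pair with Cox4i2, at 1918 to 2110 FPKM, above Cox7c.

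The Cox7a pair had no dominant gene. Cox7a1, known as the heart and muscle form, stood at 190 and 246 FPKM in DMSO and 201 and 180 in RDF. Its ubiquitous partner Cox7a2 stood at 163 and 224 FPKM in DMSO and 185 and 192 in RDF. Cox7a1 thus held 53.9% and 52.4% of the pair in DMSO and 52.0% and 48.4% in RDF, and its libraries overlapped between the groups with a log2 fold change of -0.19 (SE 0.12). Without DMSO replicate 1 it was called lower (-0.37, limma adjusted p 0.0317, against up to 0.982 under other alternatives). The related Cox7a2l stood at 280 and 293 FPKM in DMSO and 271 and 269 in RDF.

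The testis form Cox6b2 stood at 30.8 and 42.0 FPKM in DMSO and 46.9 and 39.1 in RDF, beside 441 and 501 and 430 and 411 FPKM for Cox6b1. Cox6b2 held 6.53% and 7.74% of the pair in DMSO and 9.84% and 8.67% in RDF, so both RDF shares were above both DMSO shares. An exact permutation test of the share with 2 libraries a group cannot go below a p of 0.333. The fold change of Cox6b2 itself was 0.24 (log2, SE 0.15, limma adjusted p 0.292), and it was called higher without DMSO replicate 2 (0.46, adjusted p 0.0402) and after the GC and length correction (0.34, adjusted p 0.0476). Its adjusted p lay between 0.0199 and 0.898 over all alternatives. Ndufa4l2, a paralog of Ndufa4 known as a hypoxia-induced gene, stood at 137 FPKM in both DMSO libraries and 122 in both RDF libraries. Its log2 fold change was -0.16 (SE 0.05) with a limma adjusted p of 0.0639 (0.0388 to 0.397 over the alternatives, with a call under median-ratio scaling), and its share of the pair stayed between 18.3% and 19.2%. This pair was added to the families after its values were seen.

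**Figure D4:**
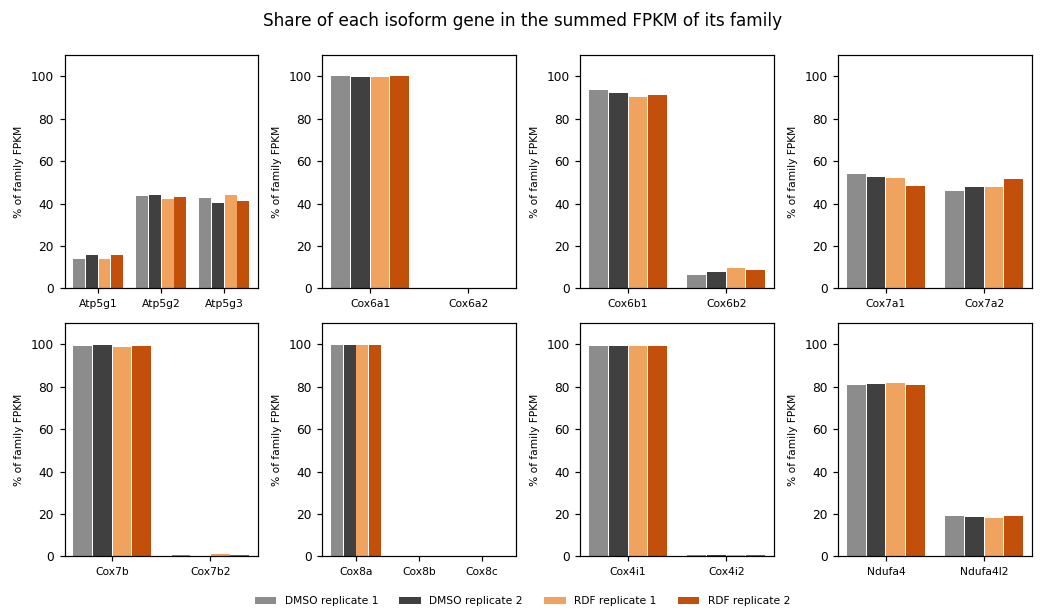
Share of each gene in the summed FPKM of its isoform family, in percent, for the 4 libraries. A single gene holds at least 90.2% in the families of Cox6a, Cox6b, Cox7b, Cox8 and Cox4, while Cox7a1 and Cox7a2 each hold 46.1% to 53.9%.

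Complex V makes ATP in its soluble F1 part, driven by a ring of c subunits in the membrane. Atp5b, the catalytic beta subunit, was the most abundant of the 80 genes, at 1835 and 1809 FPKM in DMSO and 1667 and 1668 in RDF. Atp5a1, the alpha subunit, stood at 868 and 859 FPKM in DMSO and 766 and 778 in RDF. In both, the RDF libraries were below the DMSO libraries and the replicates lay close together. The log2 fold changes were -0.13 (SE 0.07) for Atp5b and -0.16 (SE 0.06) for Atp5a1, with limma adjusted p of 0.234 and 0.108, so neither was called. Atp5c1, the gamma subunit of the central shaft, had RDF above DMSO, at 306 and 333 FPKM in DMSO and 354 and 347 in RDF (log2 fold change 0.14, SE 0.06, limma adjusted p 0.176). Of the alternatives tried, only the GC and length correction, with or without a replicate term, gave a call (0.20).

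The c subunit is made from 3 genes whose proteins differ in the cleaved leader. Atp5g2 stood at 704 and 784 FPKM in DMSO and 685 and 740 in RDF, Atp5g3 at 691 and 722 in DMSO and 715 and 712 in RDF, and Atp5g1 at 226 and 278 in DMSO and 226 and 270 in RDF. Atp5g1 held 13.9% and 15.6% of the family in DMSO and 13.9% and 15.7% in RDF. Atp5g1 was the smallest in all 4 libraries, and its shares overlapped between the groups. Those of Atp5g2 were 43.4% and 43.9% in DMSO and 42.1% and 43.0% in RDF, with both RDF shares below both DMSO shares, which an exact permutation test of 2 against 2 libraries cannot place under a p of 0.333. Of the coding stretches, 99.7% of Atp5g1, all of Atp5g2 and none of Atp5g3 are repeated elsewhere, so the split between the first 2 and their copies is uncertain.

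Atp5k, the small subunit e, stood at 442 and 777 FPKM in DMSO and 499 and 530 in RDF. DMSO replicate 2 stood apart, and the log2 fold change of -0.19 (SE 0.24) was 0.22 without that library and -0.59 without DMSO replicate 1, where it was called lower (limma adjusted p 0.00527, against up to 0.808 under other alternatives). Only 2.4% of its coding stretches were repeated elsewhere. The 15 complex V genes had a median change (log2) of -0.05, with 12 below 0 and 3 above, and none was called by limma (1 at an unadjusted p under 0.05).

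**Figure D5:**
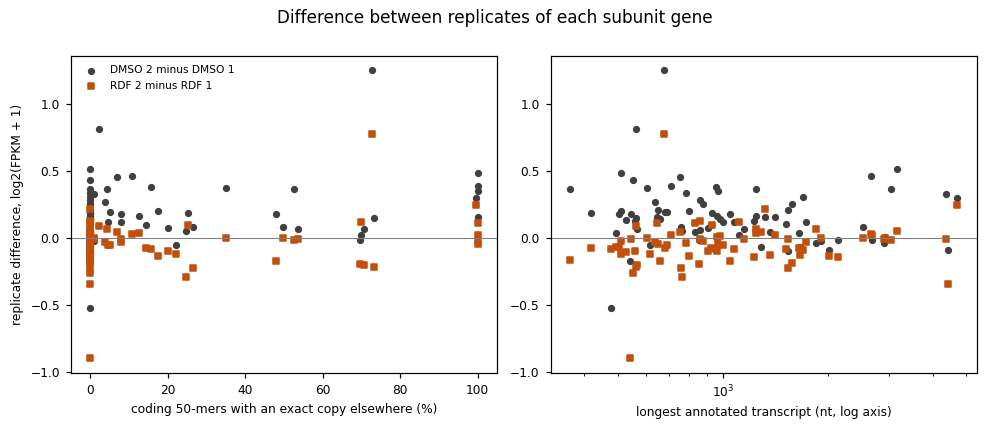
Difference between the replicates of 77 of the 78 subunit genes tested, on the log2(FPKM + 1) scale, against the share of coding 50-base stretches repeated elsewhere (left) and the longest annotated transcript (right, log axis). Most DMSO differences lie above 0 and most RDF differences below it, and Ndufs5, Atp5k and Cox7b2 lie farthest out.

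Genes that serve the complexes were taken from lists beside the subunits. The other subunits outside the symbol rule (Ndufab1, Cyc1, Cox4i1, Cox4i2, Usmg5 and 2010107E04Rik) had 0 of 6 called by limma (1 at an unadjusted p under 0.05). Their log2 fold changes were -0.14 to 0.08. For the 13 subunit genes of mitochondrial DNA, the data held no values under the symbols searched. Of 31 assembly factors with values, 2 were lower and 1 higher (9.68% called, against 21.6% of all genes tested). Foxred1, needed to assemble complex I, stood at 22.3 and 24.5 FPKM in DMSO and 15.4 and 17.5 in RDF (log2 fold change -0.49, limma adjusted p 0.0136). Cox16, an assembly factor of complex IV, stood at 11.1 and 12.9 FPKM in DMSO and 8.38 and 8.96 in RDF (-0.42, limma adjusted p 0.0254). Cox17, the chaperone that brings copper to complex IV, was the one that rose, from 248 and 247 FPKM to 333 and 284 (0.32, limma adjusted p 0.044).

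Of 17 electron carriers and their makers, 3 were lower and 0 higher (17.6% called, against 21.6% of all genes tested). Cycs, the gene of cytochrome c, stood at 88.0 and 82.7 FPKM in DMSO and 71.1 and 67.5 in RDF (log2 fold change -0.30, limma adjusted p 0.0202), and Pdss1, which makes the ubiquinone tail, fell as well (-0.37, adjusted p 0.0392). Of 18 citric acid cycle genes, 2 were lower and 0 higher (11.1% called). Pdha1, of pyruvate dehydrogenase, stood at 210 and 209 FPKM in DMSO and 175 and 176 in RDF (-0.25, limma adjusted p 0.0194), and the malate dehydrogenase gene Mdh2 at 385 and 396 in DMSO and 329 and 335 in RDF (-0.23, adjusted p 0.0314). The value for Mdh2 was -0.14 with the GC and length correction (adjusted p 0.0711). Median log2 fold changes were -0.07 and -0.09 for these lists.

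Of 9 tested genes for ATP and phosphate exchange and coupling, 2 were lower and 1 higher (33.3% called, against 21.6% of all genes tested). Slc25a5, which carries ATP out of mitochondria, stood at 1087 and 1026 FPKM in DMSO and 825 and 778 in RDF (log2 fold change -0.40, limma adjusted p 0.0133). Vdac2, a channel of the outer membrane, stood at 271 and 266 FPKM in DMSO and 229 and 226 in RDF (-0.23, limma adjusted p 0.027). Ckmt1, the mitochondrial creatine kinase, rose from 20.9 and 19.8 FPKM to 25.4 and 26.8 (0.34, adjusted p 0.0156). None of 13 tested genes for mitochondrial DNA upkeep and transcription was called by limma, and 1 had an unadjusted p under 0.05.

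Of 14 tested regulators of mitochondrial genes, 3 were higher and 1 lower (28.6% called, against 21.6% of all genes tested). Nrf1 stood at 17.3 and 18.2 FPKM in DMSO and 12.5 and 13.6 in RDF (log2 fold change -0.41, limma adjusted p 0.0133). Yy1 rose from 44.2 and 38.5 FPKM to 68.5 and 56.2 (0.58, limma adjusted p 0.0173), and Nfe2l2, which controls the response to oxidants, from 26.7 and 25.0 to 47.5 and 46.3 (0.84, adjusted p 0.0012). The coactivator gene Ppargc1a was listed at 0 in both DMSO libraries and at 0.012 and 0.041 FPKM in RDF. The 8 subunit genes with NRF1 letters in their promoter window had a median change (log2) of -0.08 and the 7 with YY1 letters one of -0.01. It was -0.06 for the 46 tested genes with a window and none of the 4 motifs. No gene of the first 2 sets was called, against 2 of those 46 (4.35%) and 2 of all 78 tested (2.56%). With so low a share, sets of 8 and 7 genes cannot show a difference in calls. Whether the levels of Nrf1 or Yy1 bear on these genes was not tested.

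All 15 calls over these lists kept their direction under every alternative tried. In each of them the libraries of the groups did not overlap, so leaving out 1 library could not change the direction. The other alternatives reuse the same 4 libraries, so the kept direction is no separate support. Fewer stayed past the threshold. With all libraries kept, 8 remained with no filter on low values, 8 without a variance trend, 10 under equal summed FPKM (where Cycs, Pdha1, Mdh2 and Vdac2 were among those lost) and 12 with the GC and length correction. Fewer remained when 1 library was left out. There were 8 without DMSO replicate 1, 7 without DMSO replicate 2, 1 without RDF replicate 1 (Nfe2l2) and 2 without RDF replicate 2 (Nfe2l2 and Yy1). Over all genes, 358 were then called higher and 235 lower without RDF replicate 1, and 253 higher and 195 lower without RDF replicate 2.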

How the data were processed

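Polyadenylated RNA from 150 ng of total RNA per sample was sequenced from stranded libraries, and the authors aligned the reads to mm9 with TopHat2 2.0.14 and Bowtie2 2.1.0 and estimated FPKM per gene with Cufflinks 2.2.1, per the submitters' processing notes and the study's methods. The deposited files hold 1 FPKM value per gene symbol and sample, on a linear scale, with no counts. How reads with several alignments were weighted was not given in the sources used here. No sample was pooled or left out.

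Values were compared as log2(FPKM + 1) with limma 3.58.1 in R 4.3.3 (trend in the prior variance, genes whose mean FPKM was 1 or more, Benjamini-Hochberg adjustment over all 11733 genes, threshold 0.05), without a replicate term, since 2 pairs of numbers do not establish pairing. Fold changes on this scale understate the change of low genes. Positions, lengths and coding sequences came from the NCBIM37 annotation, and 50-base coding stretches were searched on both strands of that genome. Promoter windows came from RefSeq on GRCm38.p6, and the 2 builds were not mixed. No coordinates were converted. Subunit sequences from chromosome 18 are not shown. The values of 1 subunit gene are not reported here, though it enters the counts and medians.

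Alternatives were another pseudocount, other filters, 3 scalings, no variance trend, a replicate block, a GC and length correction and leaving out each library. The subunit genes and the lists were chosen with earlier results of these data known. Per complex, values are given for called genes, the 2 most abundant genes, defining subunits and isoform families, and per list for up to 2 called genes in each direction. Ndufs5, Atp5k, Ndufa4l2, Atp5c1, Ndufb3 and Cox6c, genes at the edge of a range, the 1.5-fold bound, the coding copies, the class of at least 100 FPKM and the sequences shown were chosen after the values were seen.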

Additional observations from a re-analysis of the deposited data

How the results depend on the processing

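Limits of these data are 2 libraries a group, FPKM without counts, and exact copies of coding sequence for 36 of the 80 genes. The number of subunit genes called lower was 2, and it was 1 with no filter on low values and under quantile normalization, and 0 under equal summed FPKM and without a variance trend. The number called higher was 0, and it was 4 with the GC and length correction. With that correction and the replicate block together, 11 were higher and 4 lower, against 2346 higher and 1616 lower over 11317 genes. With the replicate block alone 2 were lower and 0 higher, the same counts as without it. Same-numbered samples deviated from their group means with a correlation of 0.134 (Spearman 0.114) across genes, and with 2 pairs this was not taken as pairing. Leaving out 1 library gave 0 to 13 genes called lower and 0 to 3 called higher, 66 to 75 within a 1.5-fold change, and medians of log2 fold change of -0.13 to -0.00038 over all subunit genes, -0.13 to -0.0070 for complex I, -0.12 to 0.064 for II, -0.069 to 0.0094 for III, -0.12 to -0.00067 for IV and -0.15 to 0.016 for V. The count within a 1.5-fold change was 39 of 42 with the genes holding copies left out. The complex IV median was 0.013 with the GC and length correction, and the complex V median -0.0069 under equal summed FPKM and 0.026 under quantile normalization. The causes were not tested.

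Of 740 values of single genes under the alternatives, 52 in 21 genes had the opposite sign, and 0 of these were past the threshold. Under equal summed FPKM these were Atp5g1 (0.026), Cox7a2 (0.028), Ndufs1 (0.034) and Sdhc (0.020). Under quantile normalization they were Atp5g1 (0.029), Atp5g2 (0.032), Cox5a (0.019), Cox5b (0.0045), Cox7a2 (0.021), Cox7b (0.0049), Ndufa7 (0.0027) and Sdhc (0.016). Under median-ratio scaling they were Atp5g3 (-0.020), Sdhb (-0.0067) and Uqcrfs1 (-0.026). With the GC and length correction, with or without the replicate block, they were Atp5g2 (0.044), Cox4i1 (0.0027), Cox5a (0.026), Cox5b (0.042), Cox7a2 (0.051), Cox8a (0.00036), Ndufa7 (0.055) and Uqcrc1 (0.012). Leaving out 1 library gave ranges that crossed 0 for Atp5g1 (-0.17 to 0.13), Atp5g2 (-0.14 to 0.016), Atp5g3 (-0.017 to 0.046), Atp5k (-0.59 to 0.22), Cox4i2 (-0.011 to 0.15), Cox5a (-0.16 to 0.044), Cox5b (-0.16 to 0.039), Cox6c (-0.027 to 0.34), Cox7a2 (-0.25 to 0.21), Cox7c (-0.098 to 0.29), Cox8c (-0.46 to 0.057), Ndufa7 (-0.19 to 0.086), Ndufs5 (-0.82 to 0.43), Sdhb (-0.044 to 0.097), Sdhc (-0.29 to 0.23) and Uqcrfs1 (-0.054 to 0.069).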

Other observations

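Transcript length moved with the direction of change over all genes. The median log2 fold change was -0.08 for the 113 tested genes of at most 500 nucleotides and 0.12 for the 3499 of over 4000 nucleotides, where 740 were called higher and 140 lower by limma. Within the subunit genes the medians were -0.06 both for the 43 of at most 1000 nucleotides and for the 35 longer ones. The difference between the classes was not tested.

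The 42 tested subunit genes without a repeated coding stretch held both calls (4.76%, against 21.6% of all genes tested). Of these 42, 8 (19.0%) had an unadjusted p under 0.05 by limma, against 38.0% of all genes tested. Their median log2 fold change was -0.08. The 36 with a repeated stretch held no call, with 0 at an unadjusted p under 0.05 by limma, and their median was -0.05. The difference between these sets was not tested.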
